A study of Mus musculus with 40 samples.

Results

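The IL-6 family of cytokines was followed through its ligands, its receptors and the genes of its response in 2 eye tissues, choroid and retina, after laser injury. The 10 genes were taken by symbol, *Il6*, *Lif*, *Osm* and *Clcf1* as ligands, *Il6ra*, *Lifr*, *Osmr* and *Il6st* as receptors, and *Stat3* and *Socs3* as transducer and feedback gene, and all 10 were found among the 54307 genes of the table. RNA was sequenced from both tissues of 20 mice, which gave 40 libraries in 8 groups of 5 mice. All mice were C57BL/6J animals of both sexes that carried floxed *Tgfbr2*, the gene of TGFβ receptor II, and all, controls included, received tamoxifen eye drops on 5 consecutive days from an age of 6 to 7 weeks. Tgfbr2ΔEC mice also carried Cdh5-CreERT2, a tamoxifen-inducible Cre driven by an endothelial promoter, so that the gene was removed from endothelial cells and not from the rest of the eye, whereas control mice lacked the Cre. Each genotype was fed either without (– PLX) or with (+ PLX) PLX5622, an inhibitor of the CSF1 receptor that depletes mononuclear phagocytes (MP), from the first tamoxifen dose to the end. Every eye received 6 laser burns that break Bruch's membrane and start choroidal neovascularization (CNV), and tissue was taken 3 days later, the choroid only from its lesioned centre. No unlasered tissue was analysed here, so the values describe injured eyes only.

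The ligands followed here all signal through gp130, the product of *Il6st*. IL-6 first binds its own receptor chain, encoded by *Il6ra*, whereas LIF pairs LIFR with gp130, oncostatin M pairs OSMR with gp130 in the mouse, and CLCF1 acts through the CNTF receptor complex of CNTFR, LIFR and gp130. The bound receptors activate JAK kinases, which phosphorylate STAT3, and STAT3 switches on *Socs3*, whose product blocks gp130 in turn. In the injured retina, Müller glia are a known source of LIF, and gp130 signalling is known for its protection of photoreceptors.

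Values were the authors' normalized counts, in which 1 read was worth between 0.7475 and 1.1875 and which summed to between 22256892 and 25956180 per library. *Tgfbr2* itself lay between 8729 and 11303 normalized counts in Tgfbr2ΔEC – PLX choroids and between 9836 and 10849 in control – PLX choroids, so that values summed over the whole gene and tissue did not separate the genotypes. The summed level of 17 MP markers was 64028 to 77533 in choroids – PLX against 17712 to 30174 in choroids + PLX, and 2817 to 6789 against 424 to 610 in retinas, with *Adgre1* at 0 in all 10 retinas + PLX. Photoreceptor RNA was present in all choroids, and the sum of 10 photoreceptor markers was 45612 to 132520 in Tgfbr2ΔEC – PLX choroids against 2724 to 25637 in control – PLX choroids. With PLX the sum was 6223 to 20105 in Tgfbr2ΔEC choroids and 2320 to 127790 in control choroids. All differences below were tested with limma on log2(normalized count + 1) over all genes with a mean of at least 1, and a gene was called where the Benjamini-Hochberg adjusted p was at or under 0.05.

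**Figure D1:**
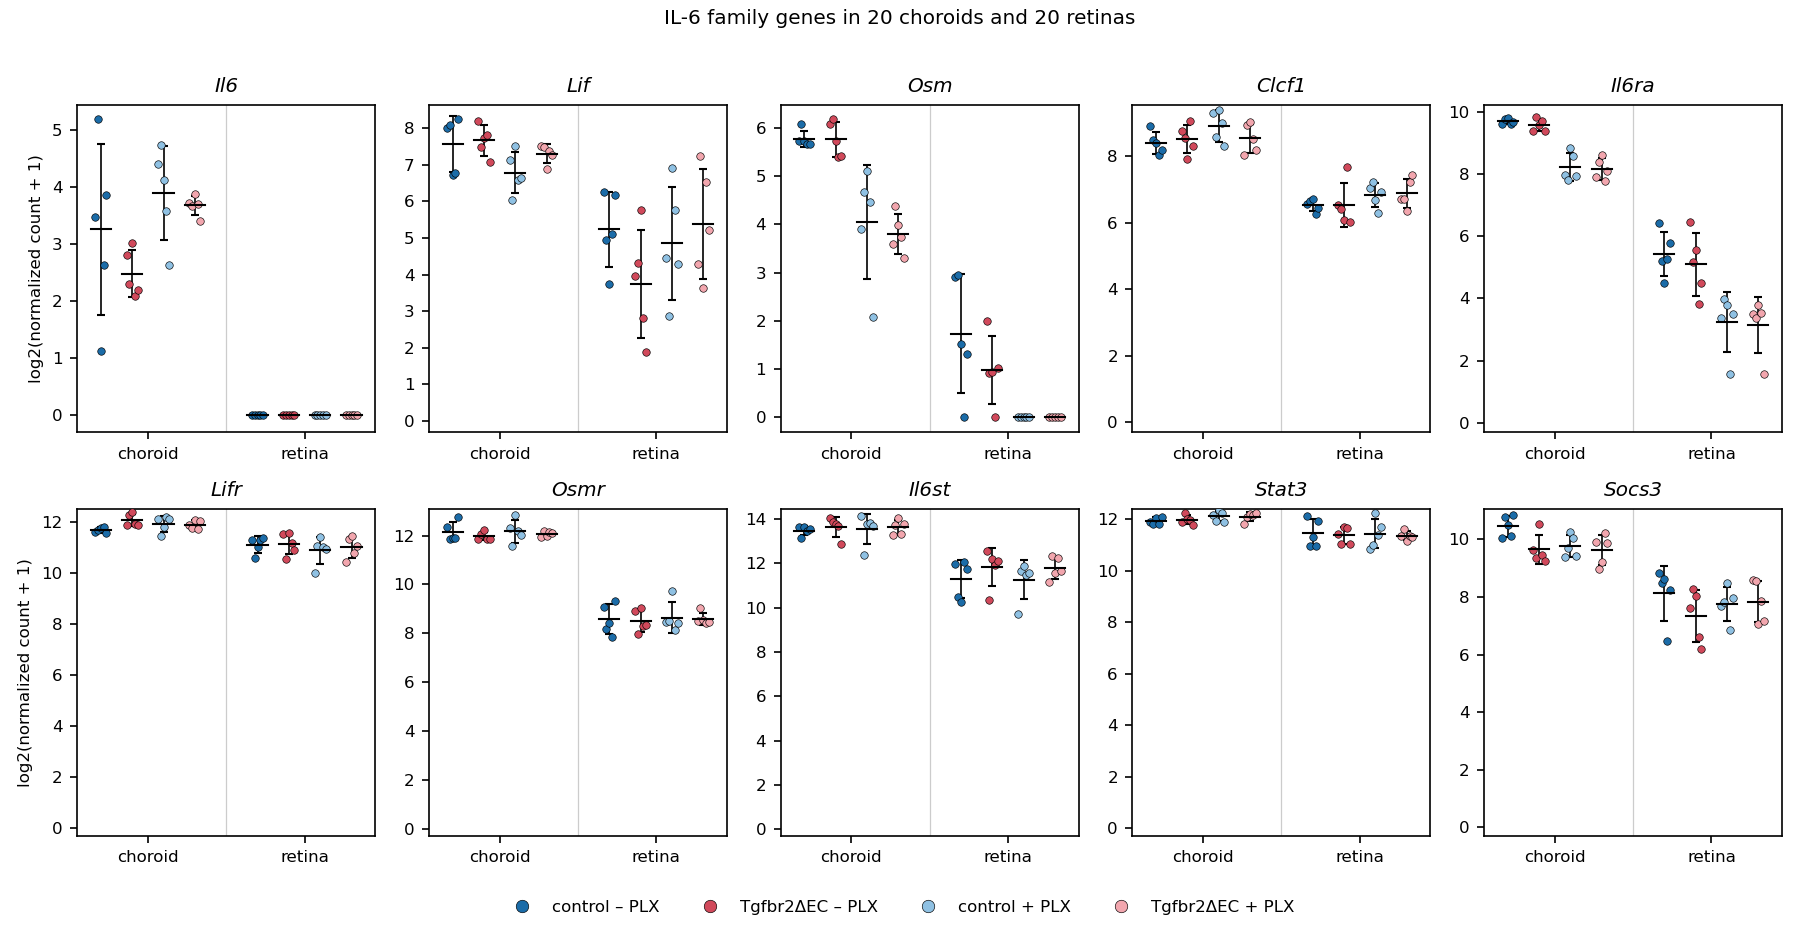
Each panel plots log2(normalized count + 1) of 1 gene in choroid (left) and retina (right), with 1 point per mouse, colours for the 4 groups, and horizontal bars with whiskers for the group mean and SD over 5 mice. All 10 genes lay higher in choroid, *Il6* was at 0 in all 20 retinas, and with PLX *Il6ra* fell in both tissues and *Osm* in choroid.

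All 10 genes were expressed at a higher level in choroid than in retina, as the plot of levels by sample shows. In choroid, levels per kilobase of exon were highest for the shared receptor chain *Il6st*, with 813 ± 204 normalized counts per kilobase (SD over 20 mice of 4 groups), followed by *Stat3* with 421 ± 50.8, *Osmr* with 361 ± 85.4, *Lifr* with 284 ± 49.9 and *Socs3* with 283 ± 109. Apart from *Clcf1*, with 105 ± 32.5 per kilobase, the ligands were low, at 37.5 ± 14.9 for *Lif*, 15.5 ± 9.47 for *Osm* and 4.67 ± 3.42 for *Il6*, and *Il6ra* reached 62.0 ± 30.2. In this order, only *Il6st* from *Stat3* and *Socs3* from *Clcf1* were neighbours whose ranges of 1 SD around the mean did not overlap. In retina the order per kilobase was *Stat3* with 281 ± 83.7, *Il6st* with 214 ± 90.4, *Lifr* with 160 ± 40.6, *Socs3* with 69.5 ± 32.6, *Osmr* with 32.5 ± 11.99 and *Clcf1* with 28.2 ± 9.50. *Lif* followed with 9.15 ± 8.84 per kilobase, *Il6ra* with 2.99 ± 2.80 and *Osm*, near the detection limit, with 0.493 ± 0.901. Here only *Lifr* from *Socs3* and *Clcf1* from *Lif* were separated in the same way.

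The tissue difference was tested as choroid minus retina over all 40 libraries, and all 10 genes were called higher in choroid, where 82% of all tested genes were called in either direction and 40.8% were called higher in choroid. The median log2 difference was 2.31 over the 10 genes and -0.01 over all tested genes. The receptors were spread widely, with log2 differences of 4.69 ± 0.21 (SE) for *Il6ra*, 3.51 ± 0.13 for *Osmr*, 2.04 ± 0.19 for *Il6st* and 0.86 ± 0.10 for *Lifr*. The LIF receptor thus differed by 1.81-fold between the tissues and the oncostatin M receptor by 11.4-fold (adjusted p = 1.77e-09 and 8.12e-25). Among the ligands, the log2 difference was 2.52 ± 0.32 for *Lif* and 1.90 ± 0.13 for *Clcf1*. For *Osm* it was 4.16 ± 0.22, but its retinal mean of 1.12 normalized counts lay under the worth of 3 reads, and the value depended on the pseudocount, from 2.53 with 5 to 4.84 with 0.5. *Il6* was at 0 in all 20 retinas, where 3 reads corresponded to a mean of 2.91 normalized counts, and averaged 11.3 ± 8.30 (SD, n = 20) in choroid, which was at least 3.90-fold higher. *Socs3* was 4.31-fold and *Stat3* 1.54-fold higher in choroid, the latter with the smallest tissue difference of the 10 (log2 difference 0.63 ± 0.10, adjusted p = 4.66e-07).

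The diet comparison asked which of these genes changed with the depletion of MP. In choroid 2 of the 10 genes were called, *Il6ra* and *Osm*, both lower with PLX, against 7.13% of all tested genes called in either direction and 5.06% called lower. In retina 1 of 9 tested genes was called, *Il6ra*, again lower, where 1.09% of all genes were called and 1.08% were called lower. The median log2 difference over the members was 0.03 in choroid and -0.02 in retina, beside 0.00 over all tested genes of either tissue.

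*Il6ra*, the chain that makes a cell responsive to IL-6 itself, was 783, 865, 891, 782 and 819 normalized counts in control – PLX choroids and 664, 904, 761, 840 and 662 in Tgfbr2ΔEC – PLX choroids. With PLX, it was 251, 225, 457, 378 and 244 in control and 239, 335, 393, 217 and 272 in Tgfbr2ΔEC choroids. The 10 choroids on each diet did not overlap, which held for 1.8% of all genes tested. The log2 difference was -1.44 ± 0.13 (adjusted p = 6.86e-08), and the mean was 2.66-fold lower in control and 2.63-fold lower in Tgfbr2ΔEC mice. In retina *Il6ra* ran from 13 to 86.7 (median 36.5) without and from 1.93 to 14.9 with PLX, overlapping only between the lowest – PLX and the highest + PLX retinas. Its log2 difference there was -2.07 ± 0.38 (adjusted p = 0.0034). Of the 17 MP markers, 16 were called lower in choroid and 17 in retina, with median log2 differences of -2.02 and -5.68. The part of the MP in the *Il6ra* and *Osm* results was not tested, and fewer cells of a type and less RNA per cell cannot be told apart in whole tissue.

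*Osm*, a ligand made by leukocytes, macrophages among them, was 49.3 to 66.2 (median 51.7) in control – PLX and 41.2 to 70.9 (median 52.1) in Tgfbr2ΔEC – PLX choroids. With PLX it was 3.21 to 33.2 (median 21.1) in control and 8.87 to 19.8 (median 12.4) in Tgfbr2ΔEC choroids, so that the diets did not overlap here either. The log2 difference was -1.84 ± 0.29 (adjusted p = 1.74e-04), with a 2.80-fold lower mean in control and a 4.08-fold lower mean in Tgfbr2ΔEC mice. In retina *Osm* was above 0 in 8 of 10 mice – PLX, at most 6.69 normalized counts, and at 0 in all 10 mice + PLX. These retinal values lay mostly under the worth of 3 reads, and the difference was not called (limma adjusted p = 0.076) at the minimum mean of 1. The log2 difference of -1.36 ranged from -1.93 with a pseudocount of 0.5 to -0.47 with 5 (neither called, the latter with a limma adjusted p of 0.23). It was called without a minimum mean (adjusted p = 0.036), without mouse 4 (0.0078) or without mouse 9 (0.046), not without any of 16 other mice (up to 0.17), and without mouse 1 or 2, which had the highest values, *Osm* fell under the minimum mean and was not tested. For *Osmr*, its receptor chain, the diet difference in choroid was 0.06 (95% confidence interval -0.21 to 0.34) and was not called.

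The neutrophil list was checked because neutrophils also make oncostatin M. The sum of its 7 markers was 410 to 882 in choroids – PLX and 241 to 492 in choroids + PLX, and 1 of 5 tested markers was called lower, *Csf3r*, the G-CSF receptor, with a log2 difference of -1.06. The granule genes *S100a8* and *S100a9* had log2 differences of 0.24 and -0.03 in choroid and were not called. The sum of 6 T cell markers was 307 to 514 in choroids – PLX and 105 to 267 in choroids + PLX, without overlap. Of these 6 genes, with a median log2 difference of -0.41, only *Cd4* was called lower (-2.17 ± 0.26, adjusted p = 3.52e-06). The others ran from -1.05 ± 0.55 for *Cd3d* to 0.11 ± 0.32 for *Cd8a* and were not called. The part of neutrophils and T cells in the *Il6ra* and *Osm* results was not tested.

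**Figure D2:**
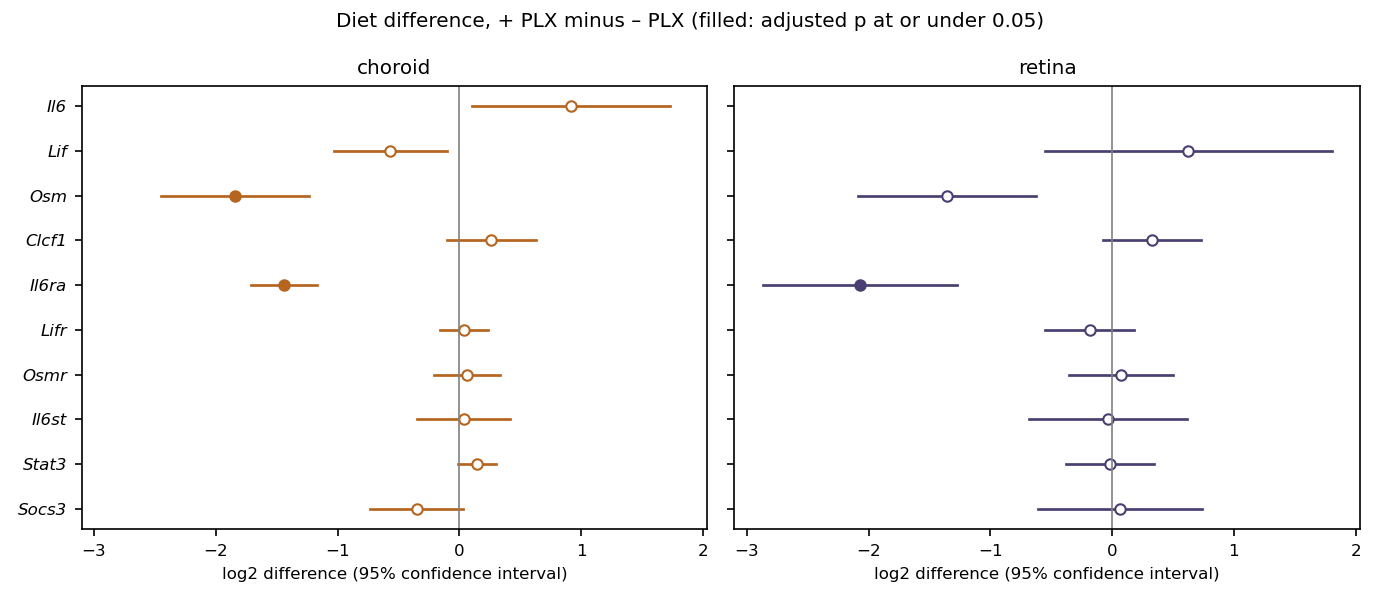
Points show the limma log2 difference between + PLX and – PLX mice with its 95% confidence interval for each gene in choroid (left) and retina (right), filled where the adjusted p was at or under 0.05. *Il6ra* is filled in both tissues and *Osm* in choroid, and *Il6*, at 0 in retina, has no retinal point.

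*Il6*, the founding ligand of the family, was scarce, and its diet difference in choroid was positive but not called. It was 10.1, 35.4, 1.17, 5.22 and 13.5 normalized counts in control – PLX and 5.95, 3.90, 7.13, 3.24 and 3.55 in Tgfbr2ΔEC – PLX choroids, against 20.1, 25.5, 16.5, 10.998 and 5.21 in control + PLX and 12.2, 11.7, 13.8, 11.97 and 9.61 in Tgfbr2ΔEC + PLX choroids. The diet difference over both genotypes was 0.92 ± 0.39 (log2, adjusted p = 0.19). It was called when control mouse 2 with its 35.4 was left out (log2 difference 1.16, adjusted p = 0.0497), and in no other fit without 1 mouse. In Tgfbr2ΔEC mice alone the diets did not overlap, with a 2.49-fold higher mean with PLX (4.75 ± 1.70 against 11.8 ± 1.49, SD, n = 5), as held for 6.52% of all genes tested. The values without PLX corresponded to about 3.02 to 6.91 reads and lay close to the detection limit of 3 reads. The exact two-sided permutation test gave p = 0.0079, the smallest p that 5 mice against 5 allow, whereas in control mice it gave p = 0.44. The sum of the photoreceptor markers also separated these groups, at 45612 to 132520 without and 6223 to 20105 with PLX, and the sum of 5 mast cell markers was 792 to 1362 without and 1301 to 2347 with PLX in them. The part of either in the *Il6* difference was not tested. This contrast was chosen after its values were seen, and genotype and diet showed no called interaction for *Il6* (adjusted p = 0.99).

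*Lif* had a median of 172 normalized counts over the 20 choroids, and its diet difference of -0.57 ± 0.22 (log2) was not called (adjusted p = 0.15). Within genotypes the mean was 208 ± 94.9 without and 116 ± 45.8 with PLX in control mice and 208 ± 58.1 and 159 ± 25.3 in Tgfbr2ΔEC mice, with overlapping groups (exact permutation p = 0.087 and 0.13). In retina *Lif* varied 55.6-fold between mice, from 2.72 to 151, and its diet difference of 0.62 (95% confidence interval -0.55 to 1.80) was not called (limma adjusted p = 1.00). *Clcf1* had diet differences of 0.26 (95% confidence interval -0.10 to 0.63) in choroid and 0.32 (-0.08 to 0.73) in retina and was called in neither.

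The shared and ligand-specific chains other than *Il6ra* showed no called diet difference. For *Lifr* the log2 difference was 0.04 (95% confidence interval -0.16 to 0.23) in choroid and -0.19 (-0.55 to 0.18) in retina, and for *Il6st* it was 0.03 (-0.35 to 0.42) and -0.03 (-0.68 to 0.62). *Stat3* differed by 0.14 (-0.01 to 0.30) in choroid and -0.02 (-0.38 to 0.35) in retina. *Osmr* differed by 0.07 (-0.36 to 0.50) in retina. *Socs3* differed by -0.35 ± 0.18 in choroid (adjusted p = 0.31) and by 0.06 ± 0.32 in retina (adjusted p = 1.00). In a direct test, none of the diet differences of the 9 genes detected in retina was called as differing between choroid and retina, against 1.37% of all genes, and for *Il6ra* the difference between tissues was 0.63 (95% confidence interval -0.20 to 1.47).

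The genotype comparison asked whether loss of endothelial TGFβ signalling was accompanied by a change of the IL-6 family in the lesioned tissue. None of the 10 genes was called in choroid, either without or with PLX, where 0.00423% of all genes were called in each comparison (1 gene each, with 2184 genes without and 889 with PLX at an unadjusted p under 0.05). Without PLX this share depended on the samples fitted, since 303 genes were called in a fit of the 10 mice alone and 411 without mouse 15, with no member among them. None of 9 was called in retina, where 0% of all genes were called on either diet, while 758 genes without and 629 genes with PLX had an unadjusted p under 0.05. No difference between the genotype effects with and without PLX was called by limma's interaction term for any of the genes in choroid or retina, where again 0% of all genes were called (1552 and 567 genes at an unadjusted p under 0.05).

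**Figure D3:**
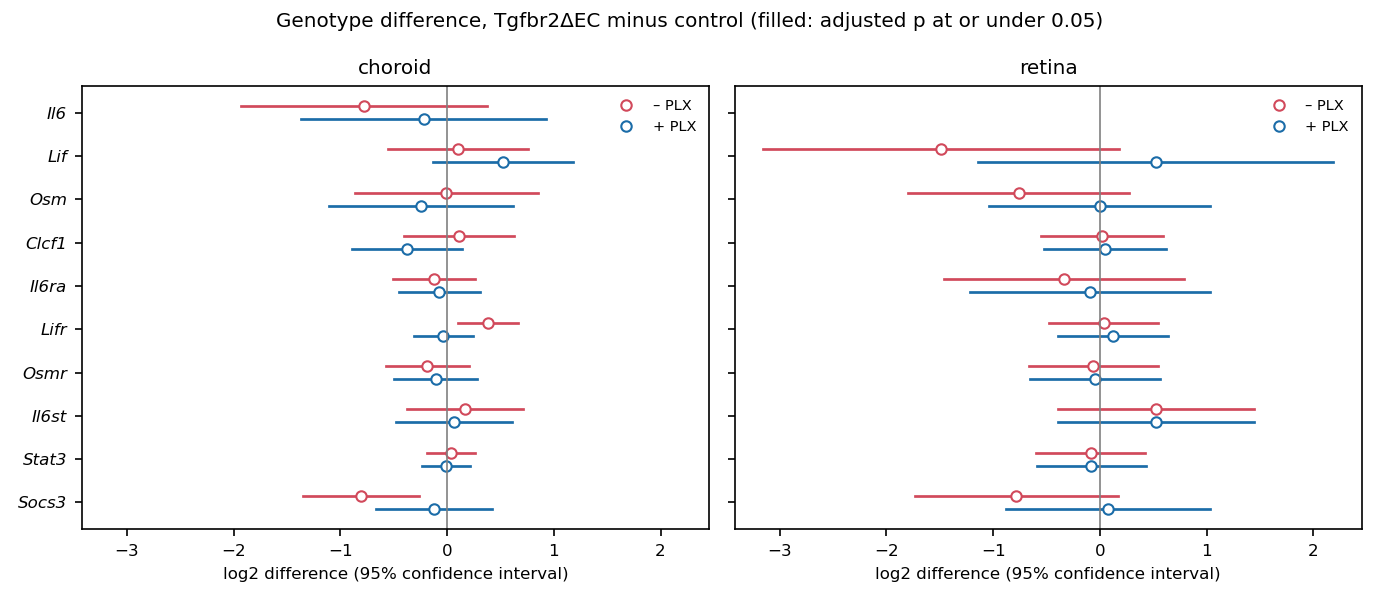
Points show the limma log2 difference between Tgfbr2ΔEC and control mice with its 95% confidence interval, without (red) and with (blue) PLX, in choroid (left) and retina (right), filled where called. No point is filled, and *Socs3* and *Lifr* without PLX in choroid are the only intervals that do not cross 0.

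*Il6* had a mean of 13.1 ± 13.3 in control – PLX and 4.75 ± 1.70 in Tgfbr2ΔEC – PLX choroids (SD, n = 5), which overlapped, and 15.7 ± 7.89 and 11.8 ± 1.49 in the mice + PLX. The log2 difference without PLX was -0.78 (95% confidence interval -1.93 to 0.37, limma adjusted p = 0.77), with an exact permutation p of 0.33 for all 10 mice. Without mouse 3, whose value of 1.17 was the lowest and under the worth of 3 reads, it was -1.31 with an exact permutation p of 0.032. Without mouse 2, which had the highest value, it was -0.30 with an exact permutation p of 0.63. In the retinas *Il6* was at 0 in both genotypes. RNA of the endothelium alone was not analysed here.

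*Socs3*, the feedback gene of gp130 and STAT3, was 1060, 1754, 1449, 1103 and 1835 normalized counts in control – PLX and 791, 660, 1472, 711 and 613 in Tgfbr2ΔEC – PLX choroids. A single Tgfbr2ΔEC mouse, number 8, lay within the control range, and the other 4 were below it. The log2 difference was -0.80 ± 0.26 (limma p = 0.0057, adjusted p = 0.24, exact permutation p = 0.032), and without 1 mouse the exact p lay between 0.0079 and 0.071. Photoreceptor RNA and a measure of long against short transcripts, described below, also moved with this contrast. Over the alternative fits, those with either as a covariate included, the log2 difference lay between -0.83 and -0.70. It was called in none of them (limma adjusted p from 0.17 to 0.99955). With PLX the genotypes overlapped, at 896 ± 242 in control and 840 ± 287 in Tgfbr2ΔEC choroids (SD, n = 5). The control – PLX choroids had the highest mean of the 4 groups, 1.61-fold above control + PLX choroids (exact permutation p = 0.040, between 0.024 and 0.071 without 1 mouse), while the diets were at 850 ± 354 and 840 ± 287 in Tgfbr2ΔEC mice (p = 0.95). The interaction was not called (log2 difference of differences -0.68, 95% confidence interval -1.45 to 0.09, adjusted p = 0.82). In retina *Socs3* was 320 ± 142 in control – PLX and 187 ± 101 in Tgfbr2ΔEC – PLX mice, again overlapping (exact permutation p = 0.19).

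The promoter of *Socs3* is shown because it held the only match among these genes to TTCNNNGAA, the palindromic core that STAT dimers recognise. The 250 bases before its RefSeq start lie at chr11:117969367-117969616 of GRCm38.p6 on the minus strand, with the match in capitals, beginning 154 bases before the start.
Socs3: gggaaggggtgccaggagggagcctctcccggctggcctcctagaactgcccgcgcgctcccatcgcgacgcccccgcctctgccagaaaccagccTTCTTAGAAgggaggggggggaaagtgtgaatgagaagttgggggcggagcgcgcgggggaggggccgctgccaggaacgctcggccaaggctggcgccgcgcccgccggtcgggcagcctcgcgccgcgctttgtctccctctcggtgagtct
Promoters were listed for 8 of the 10 genes, not for *Osm* and *Clcf1*, and 7.02% of all 32851 listed promoters held the motif in the same window. The match is a string of letters and not a measured binding site.

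*Lifr*, the receptor chain for LIF, ranged from 3041 to 3602 in the control – PLX choroids and from 3798 to 5495 in those of Tgfbr2ΔEC – PLX mice, without overlap, as held for 2.81% of all genes tested. Its log2 difference was 0.39 ± 0.13 (limma p = 0.0091, adjusted p = 0.29, exact permutation p = 0.0079). With PLX it was -0.03 ± 0.13, and the interaction of 0.42 (95% confidence interval 0.03 to 0.82) was not called (limma adjusted p = 0.71). A library-wide measure of long against short transcripts moved with this contrast, as described below, and with that measure as a covariate, which was added after seeing the data, the difference was 0.22 (adjusted p = 0.44). Photoreceptor RNA also moved with it, and with a photoreceptor score as covariate the difference was 0.40 (adjusted p = 1.00). *Lif* in retina was 12.3 to 74.6 (median 33.1) in control – PLX and 2.72 to 53.4 (median 14.4) in Tgfbr2ΔEC – PLX mice, with a log2 difference of -1.49 ± 0.80 (adjusted p = 0.99). The other members had choroidal genotype differences between -0.37 and 0.52 with or without PLX, all with intervals that included 0.

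*Osmr* and *Stat3* varied together between mice. In retina *Osmr* ran from 231 to 841 normalized counts, highest in control mice 13, 5 and 1 with 841, 640 and 543. Their *Stat3* values of 4943, 3962 and 4449 were also the highest of the 20 retinas. Over the 20 retinas Pearson's r was 0.81 (permutation p = 4e-05, adjusted 4.8e-04) and Spearman's rho 0.63 (p = 0.0038, adjusted 0.046), with both values adjusted over 12 relations between *Lif*, *Osmr*, *Stat3* and *Socs3* in both tissues. The relation was 0.81 for deviations from the group means, 0.67 without mice 5 and 13, and 0.81 over the 16 retinas of the main cluster of the long-transcript measure described below (permutation p = 1.1e-04). *Lif* and *Stat3* had r = 0.56 in retina (adjusted p = 0.045, rho = 0.45, adjusted p = 0.18), and *Osmr* and *Stat3* in choroid had r = 0.57 (adjusted p = 0.045, rho = 0.57, adjusted p = 0.052). The other 9 relations, among them *Socs3* with *Stat3* in retina (r = 0.40, adjusted p = 0.13), did not pass the correction. These relations were picked out after the values were seen.

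The 3 mice with the most *Osmr* in retina also had the most in choroid. Mice 13, 5 and 1 were at 7405, 6884 and 5214 in choroid, where the 20 mice had a median of 4180. Across the 20 mice the choroid and retina values of *Osmr* had r = 0.71 (permutation p = 6.3e-04, adjusted over 9 genes 0.0034) and rho = 0.51 (p = 0.022, adjusted 0.066). The relation rested on mice 5 and 13, without which r was 0.37. *Il6ra* (r = 0.69, adjusted permutation p = 0.0034) and *Osm* (r = 0.65, adjusted permutation p = 0.0071) also passed, but both differed by diet, and for deviations from the group means their r was -0.21 and 0.16, against 0.72 for *Osmr*. The other 6 genes, *Stat3* (r = 0.21) and *Lif* (r = 0.34) among them, had r between -0.13 and 0.34 and did not pass. For deviations from the group means, *Lif* also had a high r of 0.59, and the rest of these genes lay between -0.19 and 0.25. The r values of deviations were not tested.

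**Figure D4:**
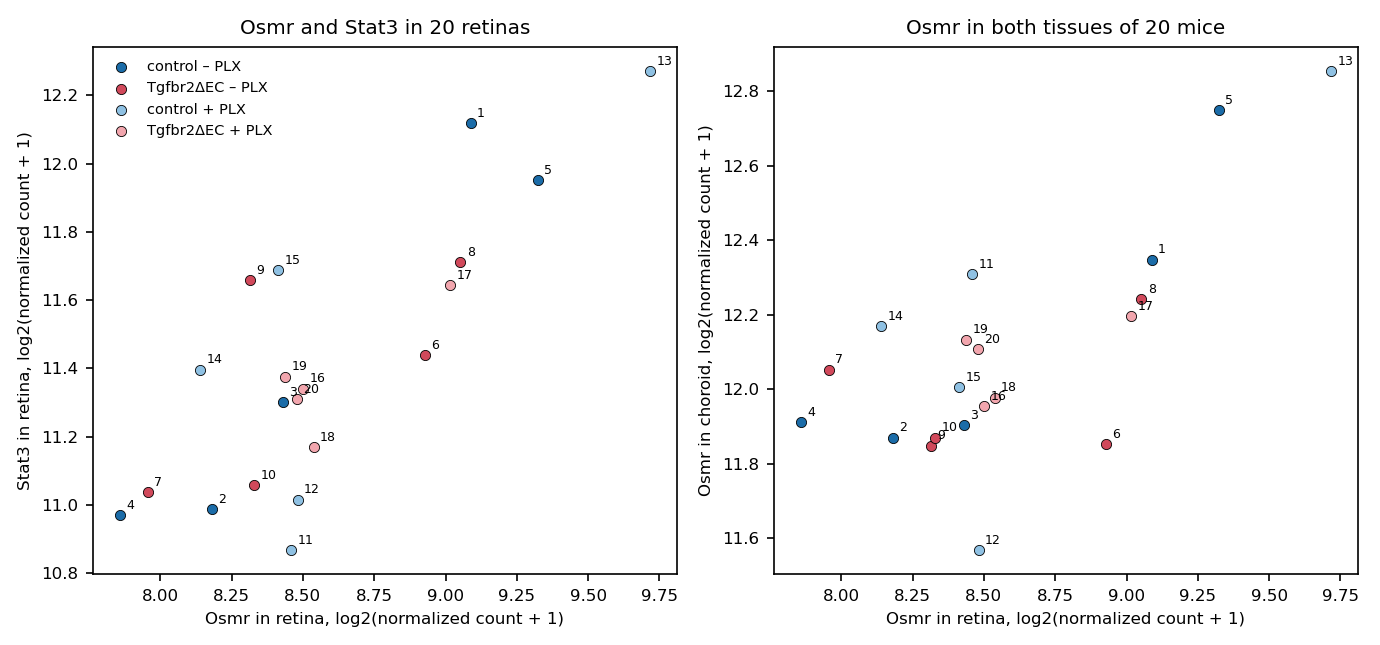
Left, *Osmr* against *Stat3* in 20 retinas; right, *Osmr* in retina against *Osmr* in choroid of the same 20 mice, both in log2(normalized count + 1), with mouse numbers beside the points and colours for the groups. Mice 13, 5 and 1 lie at the upper right of both panels.

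*Il6st* varied widely between mice of a group within each tissue. In choroid it ran from 5314 to 17969 normalized counts, the lowest in control + PLX mouse 12, and in retina from 845 to 6046. *Il6st* has a long transcript, with 15529 bases of annotated exons, as have *Lifr* (13795) and *Osmr* (12398). For each library the mean log2 deviation of other genes with at least 8000 bases of exons was set against that of genes with at most 2000 bases. The retinas fell into 2 clusters of this measure. In mice 2, 3, 7 and 11 it was -0.89 to -0.43 and *Il6st* was 845 to 1419, whereas in the other 16 retinas it was -0.10 to 0.33 and *Il6st* was 2272 to 6046. Within those 16 retinas the relation with *Il6st* had r = 0.41 (permutation p = 0.12). In choroid, r was 0.73 over 20 mice (permutation p = 2e-04, rho = 0.65, p = 0.0025) and 0.52 without mice 2 and 12. For *Lifr* in choroid it was 0.68 (permutation p = 9.3e-04). For *Osmr*, also long, it was 0.28 in choroid (permutation p = 0.24) and 0.19 in retina (permutation p = 0.42). In this measure all 5 control – PLX choroids lay between -0.28 and -0.13 and 4 of 5 Tgfbr2ΔEC – PLX choroids at -0.01 or above. The measure also moved with diet in choroid, with medians of -0.18 without and 0.14 with PLX in control mice and of 0.04 and 0.19 in Tgfbr2ΔEC mice, with overlap in both genotypes. With it as a covariate *Il6ra* and *Osm* remained called lower with PLX in choroid (log2 differences -1.51 and -1.50), and *Il6st*, at 0.03 without the covariate, was also called lower (-0.41, limma adjusted p = 0.044). What sets this measure was not tested.

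**Figure D5:**
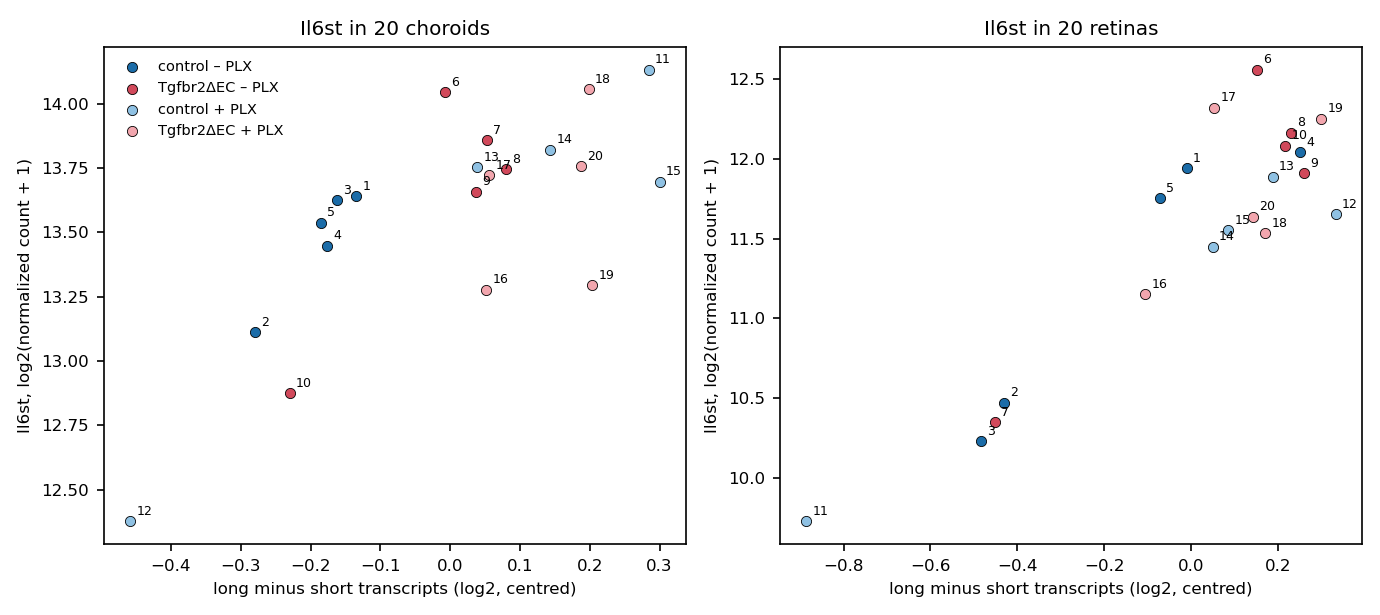
*Il6st*, in log2(normalized count + 1), against the mean log2 deviation of long minus short transcripts in 20 choroids (left) and 20 retinas (right), 1 point per mouse with its number. Retinas 2, 3, 7 and 11 form a separate low cluster, and choroid 12 is lowest on both axes.

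Around these genes, the other ligands and receptors of the gp130 family had 2 of 10 tested genes called lower with PLX in choroid and none higher, beside 5.06% of all genes called lower, and the median over the list was -0.03. They were *Ebi3* and *Il27*, the paired chains of interleukin-27, which uses gp130 together with IL-27RA, with log2 differences of -2.51 ± 0.18 (adjusted p = 1.73e-09) and -1.67 ± 0.39 (adjusted p = 0.0089). In retina none of 10 was called, and *Ebi3* differed by -0.26 ± 0.30. The difference between tissues was called for *Ebi3* (log2 -2.26, adjusted p = 6.45e-05), which was 1 of the 332 genes called in that test. Of 12 kinases, STATs and negative regulators, only *Ptpn2*, a phosphatase, was called in choroid (-0.23 ± 0.06, adjusted p = 0.030) and none in retina, and the choroidal count was near the 7.13% of all genes called.

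Of 20 genes known to be induced by STAT3, which include *Osmr* and *Socs3*, 4 were called lower with PLX in choroid and none higher, beside 5.06% of all genes called lower, with a list median of -0.21. They were *Il4ra*, the IL-4 receptor chain, with -0.71 ± 0.13, *Serpina3n*, a protease inhibitor of reactive glia and acute injury, with -0.43 ± 0.10, *Timp1*, an inhibitor of metalloproteinases, with -0.36 ± 0.10, and the AP-1 gene *Junb* with -0.36 ± 0.10. In retina 1 of 20 was called, *Lcn2*, the iron-binding lipocalin of injury, at 0.249 of its – PLX level (adjusted p = 0.019), beside 1.08% of all genes called lower there. *Saa3*, a serum amyloid A also made by macrophages, was the 1 acute phase gene called of 5 tested in choroid and of 6 in retina, with -3.74 ± 0.42 and -3.24 ± 0.60 (adjusted p = 2.11e-06 and 0.0035). *Junb* was also the 1 gene called of 10 immediate early genes in choroid, a share near the 7.13% of all genes called, and none was called in retina. Between genotypes, no gene of these lists was called on either diet in either tissue. The median of the STAT3-induced list was -0.12 without and -0.11 with PLX in choroid and -0.50 and -0.24 in retina, beside medians between -0.01 and 0.01 over all genes. Low retinal medians were not particular to this list. They were -0.32 without and -0.23 with PLX for the immediate early genes, which share *Fos* and *Junb* with it. The acute phase genes were at -0.31 and -0.13 and the other gp130 family genes at -0.25 and -0.18, whereas the kinase list was at 0.06 and 0.09.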

How the data were processed

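Libraries were stranded, polyA-selected and read singly, as described for choroid. The authors quantified reads with Salmon (1.10.1) on GRCm39 and deposited counts normalized with DESeq2 (1.36.0), a signal that need not be whole, with all 40 libraries on 1 scale (median ratio to the geometric mean 1.0082 in each). Symbols came from the GENCODE annotation of GRCm39, which matched 53700 of 54307 genes. Python (3.11.15), R (4.3.3) and limma (3.58.1), with a mean-variance trend, were used from there. Fits used the 20 libraries of a tissue or all 40, log2(normalized count + 1), genes with a mean of at least 1, and no covariate. The study modelled sex and a neuronal percentage estimated with xCell, neither of which is in the labels. As alternatives, a score of sex-linked genes and a score of 10 photoreceptor markers stood in for them, the latter in choroid only. The worth of 1 read was taken from the spacing of the lowest values, and for that reason depth is approximate and the limit of 3 reads covers counting error only. Of values under 10 reads, 45.9% to 72.2% per library were whole multiples within 0.1 read, so no count test was run. Single values were tested with exact two-sided permutation tests over mice (75 computed, none adjusted over the members alone), and correlations with 100000 permutations.

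The members and all lists were chosen with earlier results of these data known. All 10 members were named, of other lists the called genes were named (at most 4 per direction), and *Tgfbr2* was checked as the targeted gene. Both tissues of a mouse share its number in the labels; deviations of the same mouse correlated between -0.16 and 0.29 across genes, over 0.1 in 12 of 20 mice, and the sex-linked genes matched in 20 of 20. Mice are separate animals. Sequences were credited to RefSeq (GRCm38.p6), whose coordinates were not mixed with GRCm39. The limma script was tested on simulated data. Alternatives were other pseudocounts (0.5 and 5), minimum means (none and 10), scalings, covariates, a replicate block, fits of 10 mice and fits without each mouse. Values of some single genes are not reported here.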

Additional observations from a re-analysis of the deposited data

Results flagged for a closer look

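Of 74 groups of 5 mice with a nonzero spread among these genes, 8 held a mouse whose gap to its nearest neighbour was large for the range of the group on the log2 scale, where chance gives about 1 in 20. *Il6ra* was 1.93 in the retina of control + PLX mouse 14, the others being at 9.25 to 14.9, and 1.97 in Tgfbr2ΔEC + PLX mouse 20, the others being at 9.26 to 12.9, both under the worth of 3 reads. *Il6st* was 845.5 in the retina of control + PLX mouse 11, the others being at 2798 to 3796, and 5314 in the choroid of control + PLX mouse 12, the others being at 13288 to 17969. *Osm* was 66.2 in the choroid of control – PLX mouse 2, above 49.3 to 51.9 in the others. *Osmr* was 841 in the retina of control + PLX mouse 13, above 281 to 356 in the others, and 517 in that of Tgfbr2ΔEC + PLX mouse 17, above 346 to 371. *Socs3* was 86.9 in the retina of control – PLX mouse 4, below 301 to 453 in the others.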

How the results depend on the processing

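The calls of *Il6ra* and *Osm* in choroid and of *Il6ra* in retina held in every alternative. The number of members called with PLX in retina was 2 without a minimum mean and 1 to 2 without 1 mouse (2 without mouse 4 or 9), and 2 to 3 in choroid without 1 mouse. For all genes, the diet comparison called 154 genes in retina at a minimum mean of 10 (206 to 266 without 1 mouse, against 254). The genotype comparison without PLX in choroid called 303 genes in a fit of its 10 mice alone, 0 at a minimum mean of 10, and 1 to 411 without 1 mouse (411 without mouse 15), but never a member. The genotype comparison with PLX in choroid called 0 genes, against 1, with a pseudocount of 5, a minimum mean of 10, a fit of 10 mice, or the sex, photoreceptor or long-transcript measure as covariate, and 0 to 1 without 1 mouse. That of retina with PLX called 0 to 1. The test of diet by tissue called *Osm* with a pseudocount of 5 (1 member, log2 difference -1.10, adjusted p = 0.015) and had the opposite sign with 0.5 (0.042), near the detection limit, and it called 278 to 620 genes without 1 mouse (620 without mouse 15). The cause was not tested. The diet difference of *Socs3* in Tgfbr2ΔEC choroids changed sign without mouse 17 (0.15), 18 (0.098) or 8 (0.21), and lay between -0.16 and 0.21 without 1 mouse. The choroidal diet difference of *Il6st* was -0.41 with the long-transcript measure as covariate, when it was called (3 members in all), and -0.061 to 0.18, never called, without 1 mouse. *Lif* in Tgfbr2ΔEC choroids had an exact permutation p of 0.016 without mouse 10. With a replicate block for the mouse, the tissue comparison called 10 members and 19855 genes, and that of diet by tissue 0 members and 268 genes, so no call of a member changed.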

Other observations

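Outside the 10 genes, the tissue comparison covered the rest of the pathway. Of 10 other ligands and receptors of the gp130 family, 8 were called higher in choroid and none in retina, with a median log2 difference of 2.18. They included *Il27ra* with 5.17 ± 0.21 (SE), *Il11ra1*, the IL-11 receptor, with 2.67 ± 0.10 and *Ctf1*, cardiotrophin 1, with 2.40 ± 0.16. Of 12 kinases, STATs and negative regulators, 10 were higher in choroid, with *Socs1* at 3.52 ± 0.15 and *Stat5a* at 2.49 ± 0.08, and 2 were higher in retina, *Ptpn2* with -0.64 ± 0.04 and *Pias3*, an inhibitor of STAT3, with -1.09 ± 0.08. Of 20 genes known to be induced by STAT3, 17 were higher in choroid, *Icam1* with 6.57 ± 0.14, and *Fos* was higher in retina with -0.59 ± 0.13. These counts stand beside 40.8% of all genes called higher in choroid and 82% called in either direction.

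By Pearson correlation over the 20 libraries of a tissue, among genes with a mean of at least 10, *Il6ra* was most like *Nckap1l* (r = 0.97) and *Ms4a4a* (0.97) in choroid and *Pld4* (0.89) and *Ptprc* (0.88) in retina. *Osmr* was most like *Lrrc2* (0.87) and *Fgf2* (0.86) in retina. *Socs3* was most like *Nudcd2* (0.78) and *Ptgr2* (0.77) in choroid and *Socs1* (0.84) and *Nupr1* (0.83) in retina. The points share diet groups and library-wide differences, and the order is a description.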
